A study of Mus musculus with 17 samples.

Results

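Cells labelled in the dorsal wall of the newborn mouse subventricular zone were compared between 1 or 2 days and 4 days after electroporation. The samples were chosen by their labels alone, as the dorsal samples of 1 day (3 samples), 2 days (2) and 4 days (3), all read in the Cy3 channel. They make up 8 of the 17 dorsal samples and 8 of the 34 samples of the series. In the study, progenitors of the dorsal or the lateral wall were electroporated in vivo in CD1 mice at postnatal day 1, and cells positive for GFP were collected by sorting at 6 time points up to 14 days later. Each array of the series paired a dorsal sample with a lateral one of the same time point. The 3 groups used here share the strain, the wall, the age at electroporation and the sort for GFP, and differ in the time before collection. The labels name no other allele or agent, and neither the promoter that drove GFP nor the number of animals behind a sample is stated in the sources used here. RNA was amplified by PCR before labelling, so a value is the level of a transcript in amplified cDNA. The arrays are called biological replicates, and nothing further says from which animals they came. Each p-value therefore measures only how the samples of its fit spread, which may be technical. The main fit took all 17 dorsal samples, so the spread at 8 hours, 7 days and 14 days enters it too.

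The subventricular zone keeps making neurons after birth. Radial glia and astrocyte-like stem cells in its walls give rise to dividing intermediate progenitors and then to neuroblasts, which migrate to the olfactory bulb and become interneurons, most of which release GABA. Where in the wall a stem cell sits is known to bias which interneuron it makes, and the dorsal wall descends in part from the embryonic pallium, which also makes glutamatergic neurons. Interferon-stimulated genes, a separate group followed here, encode antiviral proteins that cells switch on when interferon or foreign nucleic acid is sensed.

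Levels are given as log2 intensity after background correction and normalization between arrays, and a change is a difference of 2 such levels, so that 1 unit is a doubling. Spots well above background made up 56.9% to 76.7% of the spots of the 8 dorsal samples, and the median signal was 49.6 to 310 before 4 days and 53.3 to 124 at 4 days. Depth has no meaning for an array, and the number of arrays limits the precision. The dorsal sample 1 day replicate 1 stood apart, with correlations of 0.654 to 0.718 with the other early samples, where the other early pairs had 0.842 to 0.952. The 3 samples at 4 days correlated with one another at 0.834 to 0.886. All 3 arrays of 1 day lay on 1 slide that held no other time point, whereas the first replicates of 2 days and 4 days shared a slide, as did their second replicates. The level at 1 day and its slide therefore cannot be told apart, and 4 days against 2 days with slide as a fixed block, which compares these times within slides, is given for the groups of genes below where it changed a call of a named gene or moved a count by over 1.5 times. That fit took only the arrays of 8 hours, 2 days, 4 days and 7 days, and left out those of 1 day and 14 days. Where it moved a call or a count, the block and the change of samples cannot be told apart. Markers expected of the labelled lineage were present: Sox2, Nes, Slc1a3, Emx1, Emx2, Pax6, Tbr1, Eomes, Dlx1, Dlx2, Dlx5, Gad1, Dcx and Tubb3 were well above background in 5 of 5 early samples and 3 of 3 samples at 4 days. This does not set the lineage apart, since tested genes of other cells passed nearly as often. Of the 5 early samples, a gene passed in a mean of 4.72 for microglia and macrophages, 4.83 for erythroid cells and 4.93 for ependymal cells. Only genes well above background in at least 3 of the 8 dorsal samples were tested, so these means are in part fixed by that filter. The arrays were not found to carry a probe named for GFP.

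The early samples were first compared with one another. Between 1 day and 2 days, limma called 0 of 20956 genes (0%) at an adjusted p under 0.05, where 1546 genes had an unadjusted p under 0.05 and the median change was -0.26. The count rested on the replicates: without 1 day replicate 3 it was 235, without 1 day replicate 1 it was 2, and with a weight for each array's quality it was 1581. Microglia and macrophage markers, singled out after their values were seen, had a median change of 3.22 between these times. Their mean level was 9.69, 9.76 and 12.62 at 1 day and 14.28 and 13.31 at 2 days, against 11.80, 11.27 and 11.39 at 4 days. Levels at 4 days thus lay between those of the early samples, and 0 of the 18 genes were called between 4 days and the early samples, where 4 were called lower than at 2 days with slide as a block. Laptm5, a lysosomal protein of blood-derived cells, had the smallest p among them, with levels of 6.53 and 7.98 in the first pair of 1-day samples, 12.02, 12.98 and 12.27 in the other early samples and 6.81, 7.56 and 8.49 at 4 days, which was called lower than 2 days with slide as a block (adjusted p = 0.0211). RNA of this class was thus unequal among the early samples, and its part in the results that follow was not tested.

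Between the 5 early samples and the 3 samples of 4 days, 788 of 20956 genes passed the test, 227 higher at 4 days (1.08% of the genes tested) and 561 lower (2.68%). The rises included 8 of 18 genes of GABAergic interneurons and 7 of 22 of migrating neuroblasts, and the falls 17 of 24 interferon-stimulated genes, 6 of 14 astrocyte genes, 6 of 18 radial glia genes and 3 of 6 erythroid genes. Of the 788, 750 had values at 4 days that did not overlap the early values, against 1119 genes (5.34%) that did not overlap in the higher direction and 1712 (8.17%) in the lower direction over all genes tested. Alone, 4 days against 1 day was called for 807 genes and 4 days against 2 days for 126, and these share their 4-day samples with the comparison above. Of the 788, 639 were among the 807 and 120 among the 126. Many genes named below were thus not called against 2 days alone, which is not repeated for each. With slide as a fixed block, 4 days against 2 days gave 287 genes higher (1.37%) and 720 lower (3.44%), in a fit without the arrays of 1 day and 14 days. The count of 788 depended on single samples and fell to 428 without 2 days replicate 1, 414 without 2 days replicate 2, 497 without 4 days replicate 1, 380 without 4 days replicate 2 and 368 without 4 days replicate 3. The balance of the directions depended on the scaling, since centring each array on its median gave 331 higher and 305 lower, 52% higher in place of 28.8%, with the median change over all genes moving from -0.09 to 0.35.

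**Figure D1:**
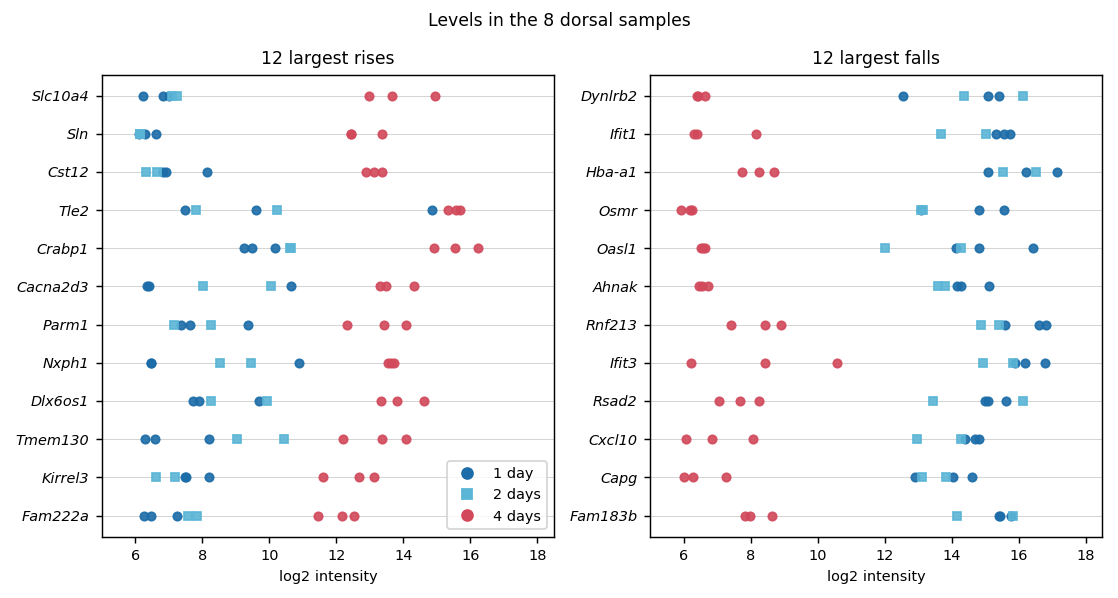
Dorsal log2 intensity of the 24 genes with the largest changes that met the rule, 12 rises and 12 falls, with a point for each of the 8 samples. Slc10a4 sits between 6.22 and 7.25 in the 5 early samples and between 12.98 and 14.95 at 4 days.

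The largest rise among the genes named by the rule was that of Slc10a4. This gene, which encodes a member of the bile acid transporter family found on synaptic vesicles, had levels of 7.01, 6.82 and 6.22 at 1 day, 7.10 and 7.25 at 2 days and 12.98, 14.95 and 13.67 at 4 days. All 4-day samples were far above all early ones, a rise of 6.98 ± 0.49 (SE), or 127-fold (adjusted p = 1.22e-05, limma). Crabp1, which binds retinoic acid in the cytoplasm, rose by 5.53 ± 0.82, from early levels of 9.24 to 10.65 to 14.91, 15.53 and 16.23 (adjusted p = 0.00346). Fam222a, whose early levels were 6.25 to 7.85, reached 12.17, 12.54 and 11.44, a rise of 4.97 ± 0.41 (adjusted p = 1.88e-05). Sln encodes sarcolipin, an inhibitor of the calcium pump of the endoplasmic reticulum. Its early levels of 6.11 to 6.60 were well above background in 1 of 5 samples, and it reached 12.43, 13.36 and 12.42 (adjusted p = 0.0114), a call lost without 4 days replicate 2 (adjusted p = 0.0604). Cst12 rose 71.9-fold, and Parm1 rose 40.1-fold. Fam222a and Cst12 were well above background in 4 of 5 early samples. Dlx6os1, a long noncoding RNA that lies opposite Dlx6, rose 37.4-fold, and the strand of its probe is not stated in the sources used here, while the change of Dlx6 itself, 1.45, was not called, though it was with slide as a block (3.01, adjusted p = 0.0349). Of these, Slc10a4, Crabp1, Fam222a, Cst12, Parm1 and Dlx6os1 were called in all 17 fits that left out 1 array. For 4 days against 2 days alone Crabp1 and Dlx6os1 were not called (adjusted p = 0.0607 and 0.0521), while Slc10a4, Fam222a, Cst12 and Parm1 were.

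The other 5 of the 12 largest rises were less stable. Cacna2d3, an auxiliary subunit of voltage-gated calcium channels, rose 42.3-fold (adjusted p = 0.0124) and was not called without 4 days replicate 2 (adjusted p = 0.0666). Tle2, a Groucho family corepressor, rose 46.7-fold (adjusted p = 0.0278), with an early sample of 14.84, 1 day replicate 2, close to its 4-day levels of 15.35 to 15.69, and it was called in 12 of 17 such fits. Nxph1, a secreted ligand of neurexins, was called in 13 of 17 fits, Tmem130 in 14 and Kirrel3, an adhesion molecule of the immunoglobulin family, in 12. The call of Tle2 was lost without 1 day replicate 1, 2 days replicate 1 or any 1 of the 4-day samples, with a highest adjusted p of 0.101. That of Kirrel3 was lost without either sample of 2 days or any 1 of 4 days (highest adjusted p = 0.11). For Nxph1 it was lost without 2 days replicate 2 or any 1 of the 4-day samples (highest adjusted p = 0.0771), and for Tmem130 without 2 days replicate 2, 4 days replicate 1 or 4 days replicate 2 (highest adjusted p = 0.0854). With slide as a block Tmem130 and Kirrel3 were not called (adjusted p = 0.0592 and 0.0672), and for 4 days against 1 day alone Kirrel3 and Tle2 were not (0.0545 and 0.0757). Cacna2d3 was well above background in 3 of 5 early samples, and Nxph1, Tmem130 and Kirrel3 in 4 of 5.

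Genes of GABAergic and olfactory interneurons made up one of the groups that rose. Of 18 tested, 8 were called higher and 0 lower, and the median change was 3.07, against -0.09 over all genes. The mean level over the list was 9.79, 10.55 and 10.41 at 1 day, 10.41 and 10.51 at 2 days and 12.91, 12.87 and 13.35 at 4 days, so the groups did not overlap. Transcription factors that specify these cells were among those that rose. Dlx5 had levels of 8.75, 7.78 and 8.74 at 1 day, 10.53 and 10.16 at 2 days and 13.90, 14.12 and 14.45 at 4 days, and rose 31.3-fold (4.97 ± 0.49, adjusted p = 0.000101). Dlx1, of the same homeobox family, rose 26.5-fold from levels that were highest in 2 days replicate 2, at 11.30, and reached 13.53, 14.24 and 14.59 (adjusted p = 0.00636). Sp8, a zinc finger factor of interneuron precursors, rose by 3.99 (adjusted p = 0.00375). Etv1, an ETS factor of olfactory bulb precursors, rose by 3.05 (adjusted p = 0.00434).

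Enzymes and transporters of GABA rose with them. Gad1, which makes GABA from glutamate, had levels of 11.84, 10.70 and 8.00 at 1 day, 8.82 and 6.72 at 2 days and 13.15, 14.54 and 14.31 at 4 days. Its early samples spread over a wide range without reaching the 4-day samples, and the rise was 27.5-fold (adjusted p = 0.00574). Gad2, the other GABA-synthesizing enzyme, rose by 3.77 (adjusted p = 0.0243), a call lost without 2 days replicate 2 or any 1 of the 4-day samples (highest adjusted p = 0.0931) and in a fit of the 8 arrays only (0.059). Slc32a1, which loads GABA into vesicles, rose by 3.75 (adjusted p = 0.0052). The genes of later interneuron types did not pass the test, with changes of 3.10 for Th, the first enzyme of dopamine synthesis, and 2.81 for Calb2, which encodes calretinin. Pax6, a factor of dorsal progenitors and their interneurons, had 13.31 to 14.03 in the early samples and 13.52 to 14.36 at 4 days, and its change of 0.24 was not called. The range of the list's count over fits without 1 array was 6 to 10, and its median kept its sign in all 34 settings tried.

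Neuroblast and migration genes also rose. Of 22 tested, 7 were called higher and 0 lower, with a median change of 1.68. In 14 of the 22 the 4-day values lay above all early values, against 5.34% of all genes tested. Stmn2, a regulator of microtubules in growing neurites, had levels of 8.73, 12.17 and 9.68 at 1 day, 11.72 and 10.69 at 2 days and 14.99, 15.60 and 15.52 at 4 days, a 27.3-fold rise (adjusted p = 0.00327). Every 4-day sample exceeded every early one by a wide margin. Elavl4, a neuronal RNA-binding protein, rose by 4.89 (adjusted p = 0.00751). Nrxn3, a presynaptic adhesion molecule, rose by 4.69 (adjusted p = 0.00183). Sox4, a factor of neuronal differentiation, rose by 2.86 (adjusted p = 0.00169), a call lost with slide as a block (0.0789) and in the pooled fit of 2 groups (0.114). Tubb3, a tubulin of neurons, had early levels of 13.14 to 13.92 and 15.58, 15.99 and 15.86 at 4 days (adjusted p = 0.0414). Although its groups did not overlap, Tubb3 was called in 4 of 17 fits without 1 array, those that left out a sample of 14 days (highest adjusted p otherwise = 0.147). Prokr2, a receptor that guides neuroblasts to the bulb, rose by 4.42 (adjusted p = 0.0188), and its call was lost without 2 days replicate 2, 4 days replicate 2 or 4 days replicate 3, with a highest adjusted p of 0.0905. It was well above background in 1 of 5 early samples. Dcx, the classic neuroblast marker, had a change of 2.98 that did not pass (adjusted p = 0.122) and did without 1 day replicate 2 (adjusted p = 0.0444), with 8.12 in 1 day replicate 1, 12.26 to 14.38 in the other early samples and 14.48, 16.05 and 15.60 at 4 days. The count of 7 fell to 4 without 4 days replicate 2 and to 4 without 4 days replicate 3. Of 20 genes of mature neurons and synapses 1 was called, Snap25 at 2.31 (adjusted p = 0.0423), which was called in 4 of the 17 fits without 1 array, those that left out 1 day replicate 2 or 14 days replicate 1, 2 or 3 (highest adjusted p otherwise = 0.142). Snap25 was also not called with the processed signal (0.128) or with the mean over probes (0.0818).

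**Figure D2:**
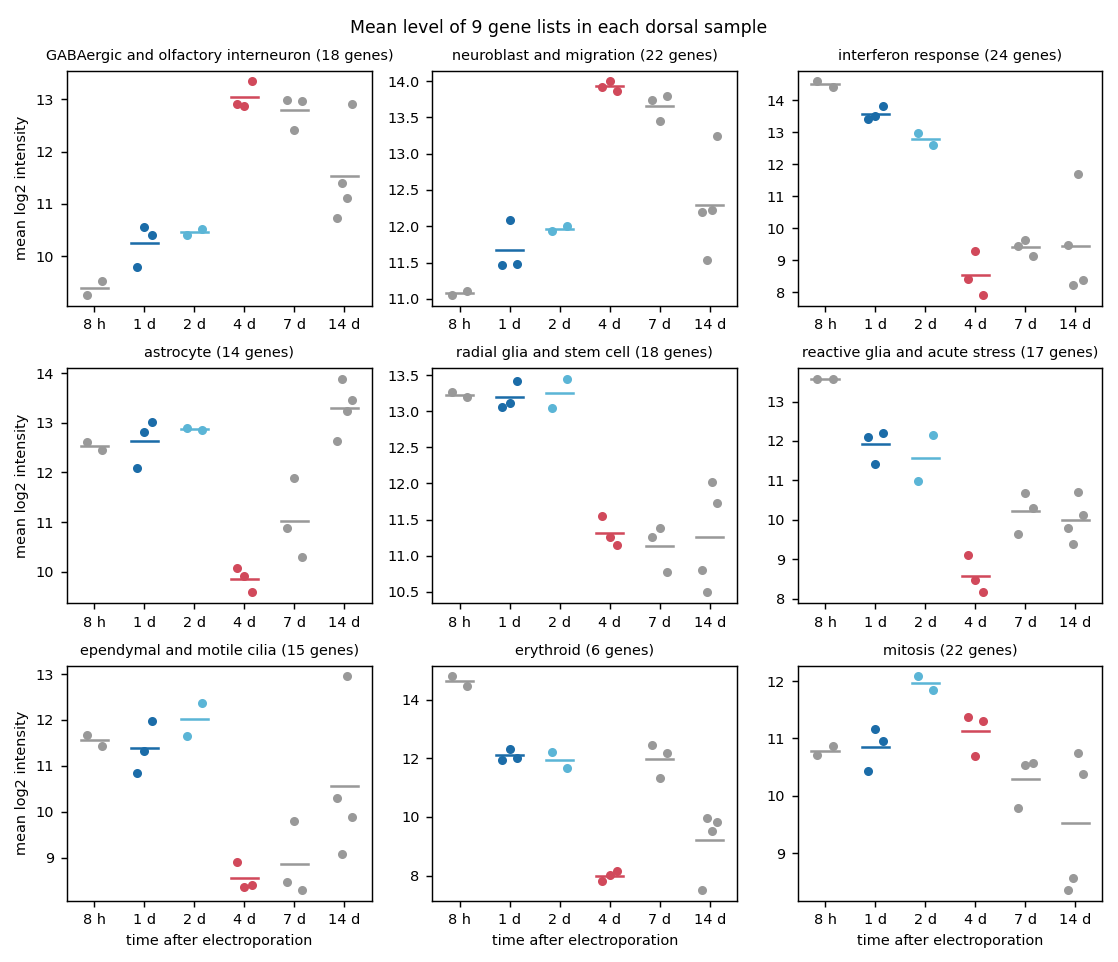
Mean dorsal log2 intensity over the genes of 9 lists against time after electroporation, with a point for each of the 17 dorsal samples; the 8 samples compared are those of 1, 2 and 4 days. For the interferon response list the early samples lie between 12.58 and 13.8 and the 4-day samples between 7.92 and 9.3, while the GABAergic list moves from 9.79 to 10.55 up to 12.87 to 13.35.

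Interferon-stimulated genes had the lowest median change of the 31 lists. Of 24 tested, 17 were called lower and 0 higher, all 24 had a negative change, and the median was -5.12. The mean level was 13.41, 13.52 and 13.80 at 1 day, 12.97 and 12.59 at 2 days and 8.43, 9.30 and 7.92 at 4 days, so that the lowest early sample was above the highest 4-day one. To let the shared sequence of these genes be seen, stretches upstream of 5 of them that fell are printed, from RefSeq promoters of build GRCm38.p6 that span 250 bases before to 50 after the start. They are written 5′ to 3′ on the strand of the gene. Capitals mark matches on either strand to GAAANNGAAA, the core of the interferon-stimulated response element, which reads TTTCNNTTTC on the opposite strand.
Ifit1, chr19:34640760-34640838, plus strand, 2 matches: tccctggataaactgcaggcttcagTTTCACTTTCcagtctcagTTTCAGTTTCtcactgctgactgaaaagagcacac
Ifit3, chr19:34583348-34583441, plus strand, 2 matches: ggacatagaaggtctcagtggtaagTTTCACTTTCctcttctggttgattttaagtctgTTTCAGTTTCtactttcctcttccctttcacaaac
Rsad2, chr12:26456538-26456597, minus strand, 1 match: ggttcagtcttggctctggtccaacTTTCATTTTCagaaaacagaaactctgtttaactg
Cxcl10, chr5:92349068-92349127, minus strand, 1 match: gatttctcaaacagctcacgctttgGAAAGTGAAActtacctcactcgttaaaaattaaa
Isg15, chr4:156200850-156200921, minus strand, 3 overlapping matches: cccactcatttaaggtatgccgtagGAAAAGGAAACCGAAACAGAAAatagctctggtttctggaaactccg

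The motif was found in 1131 of the 32851 promoters of the table (3.44%) and in 521 of the 13757 tested genes that have one (3.79%). Of the 24 interferon genes 19 had a promoter in the table, and 13 of these held a match. Among those called lower it was 11 of 14, and among those not called 2 of 5. A match is a description of these letters and does not show that a factor bound there.

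Ifit1, an RNA-binding antiviral protein, had levels of 15.58, 15.74 and 15.33 at 1 day, 15.03 and 13.69 at 2 days and 6.31, 8.16 and 6.40 at 4 days. The 4-day samples were near background, well above it in 1 of 3, and the fitted change was -8.12 ± 1.28 (adjusted p = 0.00345). Rsad2, or viperin, had 15.62, 15.01 and 15.07 at 1 day, 16.13 and 13.43 at 2 days and 7.04, 8.23 and 7.68 at 4 days (-7.40, adjusted p = 0.00751). Cxcl10, a chemokine that draws T cells, had 14.81, 14.40 and 14.69 at 1 day, 14.27 and 12.97 at 2 days and 6.85, 8.07 and 6.06 at 4 days (-7.24, adjusted p = 0.00646). At 4 days Rsad2 and Ifit3 were well above background in 2 of 3 samples and Cxcl10 in 1 of 3. The levels of all of these were lowest among the early samples in 2 days replicate 2, still well above any 4-day sample. Isg15, a ubiquitin-like modifier, had early levels of 15.82 to 16.98 and 8.59, 12.46 and 8.69 at 4 days (-6.39, adjusted p = 0.00636). Its second 4-day sample was thus higher than the others, and the call was lost with slide as a block (adjusted p = 0.0573). Ifit3 fell by 7.54 (adjusted p = 0.0102), with 4-day levels of 6.20, 8.42 and 10.57, and was not called without 4 days replicate 1 (adjusted p = 0.0555). A near-identical copy of Ifit3 exists, so its probe may read both.

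Beyond these, Oasl1, an oligoadenylate synthetase-like protein, fell by 7.76 (adjusted p = 0.0063) and was well above background in 1 of 3 samples at 4 days. Rnf213, an interferon-induced ubiquitin ligase, fell by 7.61 (adjusted p = 0.000286). Oas1a, which makes the second messenger of RNase L, had early levels of 12.11 to 15.04 and 8.15, 8.71 and 8.42 at 4 days (adjusted p = 0.00364). Bst2, or tetherin, fell by 5.64 with no value for 2 days replicate 1 (adjusted p = 0.00117). Sensors and regulators of the pathway were mixed. Ifih1, a sensor of double-stranded RNA, fell by 4.59 (adjusted p = 0.0405) and was called in 8 of 17 fits without 1 array, being lost without 8 hours replicate 1 or 2, 1 day replicate 1 or 2, either sample of 2 days, 4 days replicate 2 or 3, or 7 days replicate 3 (highest adjusted p = 0.189). It was well above background in 1 of 3 samples at 4 days, and with slide as a block its adjusted p was 0.241. Irf7, the factor that amplifies interferon production, fell by 3.89 and was called in 9, being lost without either sample of 8 hours, 1 day replicate 1, either sample of 2 days or any 1 of 4 days (highest adjusted p = 0.124), and under median centring (0.0606) or in the pooled fit of 2 groups (0.132). The transcription factors Stat2 and Irf9, which act downstream of the interferon receptor, had changes of -1.93 and -2.04 that did not pass, while Irf9 did without 1 day replicate 3 (adjusted p = 0.0485). Antigen presentation genes, some of them interferon targets, had 3 of 13 called lower and all 13 negative, with a median of -2.42. That count was 5 without 1 day replicate 1, and 1 without 2 days replicate 2, 4 days replicate 1 or 4 days replicate 3. Under median centring it was 0. Tapbp, which loads peptides onto class I molecules, fell by 4.79 (adjusted p = 0.00751) and was not called under median centring (adjusted p = 0.0951) or with slide as a block (0.0516). The count of 17 was 11 without 2 days replicate 1, 11 without 2 days replicate 2, 11 without 4 days replicate 1 and 10 without 4 days replicate 3. For 4 days against 2 days alone it was 2, and with slide as a block it was 13, with median changes of -5.06 and -3.91 on the 2 slides.

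**Figure D3:**
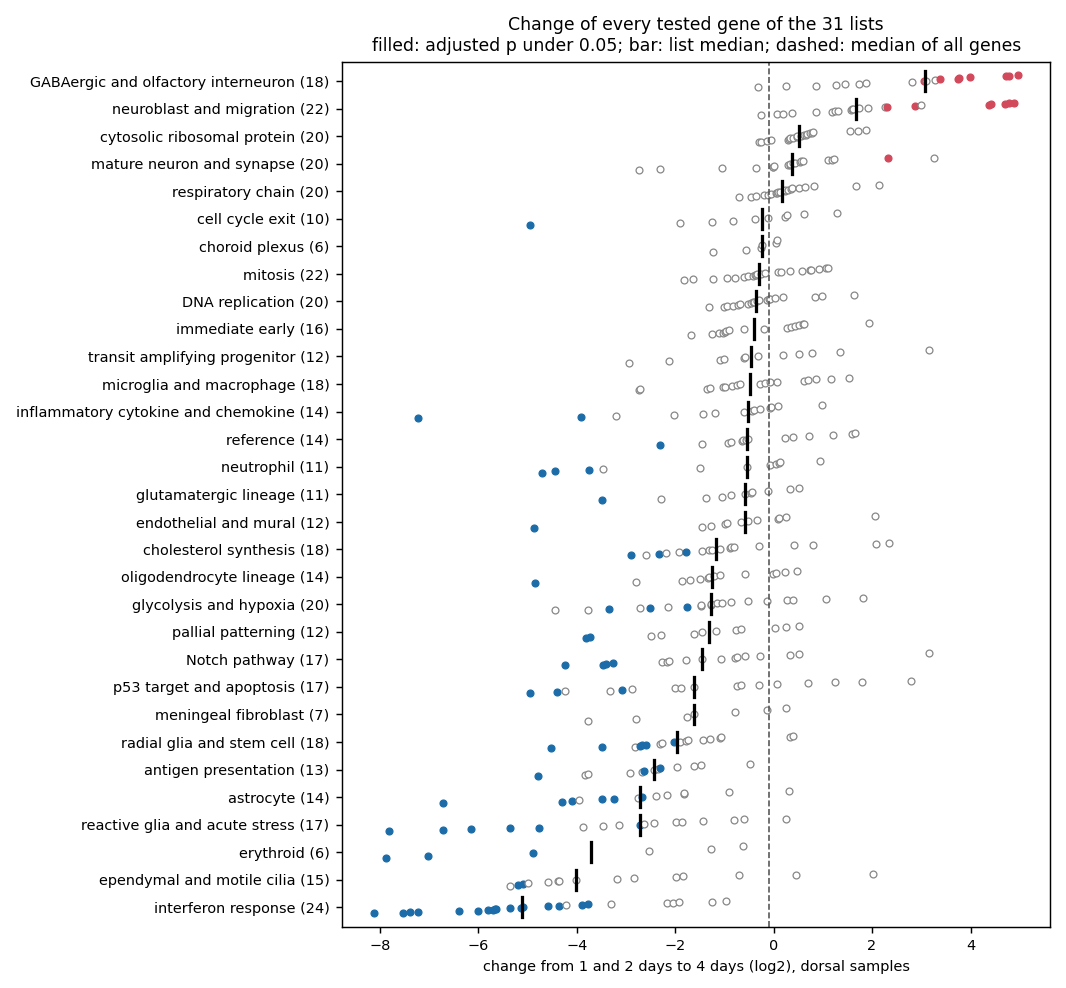
Change in dorsal log2 intensity from the early samples to 4 days for each tested gene of the 31 lists, with filled points for genes called, a bar at the list's median and a dashed line at the median of all genes. All 24 interferon genes lie below 0, while 17 of the 18 GABAergic genes lie above it.

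Astrocyte genes fell as well. Of 14 tested, 6 were called lower and 0 higher, with a median of -2.71, and the mean level went from 12.09 to 13.01 in the early samples to 10.08, 9.91 and 9.58 at 4 days. Gfap, the intermediate filament of astrocytes, had levels of 13.23, 13.60 and 13.54 at 1 day, 13.07 and 13.81 at 2 days and 7.00, 6.99 and 6.24 at 4 days. It was not well above background in any 4-day sample, and the fall was at least 102-fold, counted against the lowest signal well above background on each array (adjusted p = 1.88e-05). Aldoc, a glycolytic enzyme of astrocytes, fell by 4.30 (adjusted p = 0.00297). Slc1a2, the main glial glutamate transporter, had early levels of 14.79 to 15.57 and 12.41, 9.78 and 11.24 at 4 days (-4.10, adjusted p = 0.000897), and its call was lost with the mean over its probes (adjusted p = 0.0633). Sparcl1, a secreted matrix protein, fell by 3.48 (adjusted p = 0.00209). Fewer cells of a type and less RNA per cell cannot be told apart in such bulk samples, here or in any group described.

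Radial glia and stem cell genes fell in part. Of 18 tested, 6 were called lower, with a median of -1.97, and the mean level went from 13.05 to 13.45 down to 11.15 to 11.54. Nr2e1, or Tlx, a nuclear receptor that maintains neural stem cells, had 12.39, 10.26 and 10.59 at 1 day, 9.23 and 9.98 at 2 days and 6.73, 6.92 and 7.39 at 4 days (-3.48, adjusted p = 0.00586). It was well above background in 1 of 3 samples at 4 days. Vim, an intermediate filament of radial glia, had early levels of 16.51 to 17.10, with no value for 2 days replicate 1, and 14.70, 14.05 and 13.78 at 4 days (-2.72, adjusted p = 0.00329). Vim was not called under median centring (adjusted p = 0.0766) or with the processed signal (0.0753). Slc1a3, a glial glutamate transporter, fell by 2.03 (adjusted p = 0.0271), with levels of 13.81 to 15.30 at 4 days. Its call was lost without either sample of 2 days, 4 days replicate 2 or 4 days replicate 3 (highest adjusted p = 0.134), and under median centring (0.29), with the mean over its probes (0.268) and with slide as a block (0.113). Gli3, a transcription factor of Hedgehog signalling, fell by 4.53 (adjusted p = 0.0313) and was called in 11 of 17 fits without 1 array, being lost without 1 day replicate 1, either sample of 2 days or any 1 of 4 days (highest adjusted p = 0.142), and with the processed signal (0.0809). Sox2, a factor of neural progenitors, changed by 0.40 and Id4, an inhibitor of differentiation, by 0.33, neither called. The count of 6 was 3 without 2 days replicate 1, and 2 without 2 days replicate 2, 4 days replicate 2 or 4 days replicate 3. Under median centring it was 2.

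Notch signalling keeps neural stem cells undifferentiated, and 4 of its 17 genes were called lower, 0 higher, with a median of -1.45. The receptor Notch3 had 14.01, 13.28 and 12.98 at 1 day, 11.56 and 13.07 at 2 days and 9.39, 10.40 and 6.43 at 4 days (-4.24, adjusted p = 0.0104). The receptor Notch2 fell by 3.41 (adjusted p = 0.0108), and the targets Hey1 and Nrarp by 3.47 and 3.26 (adjusted p = 0.0115 and 0.0124). The ligand Dll1 changed by 0.51 and the DNA-binding partner Rbpj by 0.33, neither called. Each of these calls was lost without 1 of the 4-day samples: Notch3 without 4 days replicate 3 (adjusted p = 0.0512), Notch2 without 4 days replicate 2 or 3 (0.0645 and 0.0517), Hey1 without 4 days replicate 2 (0.0669) and Nrarp without 4 days replicate 1 (0.0652). With slide as a block Notch2, Hey1 and Nrarp were not called (adjusted p = 0.0815, 0.091 and 0.0731), and under median centring Notch2 and Hey1 were not (0.0583 and 0.127). Notch2 was also lost with the mean over its probes (0.12), and Nrarp in the pooled fit of 2 groups (0.0821). At 4 days Notch3 was well above background in 2 of 3 samples and Nrarp in 1 of 3. The count was 2 without 4 days replicate 2, 2 without 4 days replicate 3 and 2 under median centring. With slide as a block 1 gene was called lower and 1 higher.

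Genes of reactive glia and acute stress had 6 of 17 called lower, and 0 higher, with a median of -2.72. Osmr, the receptor of oncostatin M, had 15.56, 14.82 and 13.09 at 1 day, 13.08 and 13.13 at 2 days and 6.20, 5.90 and 6.24 at 4 days, at least 182-fold lower (adjusted p = 0.00901). It was not well above background in any 4-day sample. Cd44, the hyaluronan receptor, had early levels of 12.07 to 14.57 and 7.97, 6.67 and 6.76 at 4 days (-6.16, adjusted p = 0.00434), and was well above background in 2 of 3 of these, as was S1pr3. S1pr3, a receptor for sphingosine phosphate, was at 13.42 in 4 days replicate 1 and at 7.14 and 7.07 in the others, and its fall of 5.36 (adjusted p = 0.0463) was called in 4 of 17 fits without 1 array, those that left out 4 days replicate 1 or 14 days replicate 1, 3 or 4 (highest adjusted p otherwise = 0.22). It was not called with slide as a block (0.138) or under median centring (0.0913). The list's count was 3 without 2 days replicate 2.

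Other large falls included Ahnak and Capg. Ahnak, a large scaffold protein, fell by at least 197-fold (adjusted p = 0.000807) and Capg, an actin capping protein, by at least 129-fold (adjusted p = 5.42e-05), neither well above background at 4 days. Dynlrb2, a dynein light chain, had 12.54, 15.40 and 15.08 at 1 day, 14.38 and 16.12 at 2 days and 6.40, 6.64 and 6.43 at 4 days, at least 291-fold lower (adjusted p = 0.00327). Fam183b fell by 7.18 (adjusted p = 0.00329). Among the 15 ependymal and motile cilia genes, 2 were called lower and 0 higher, with a median of -4.01, and the mean level went from 10.85 to 12.38 down to 8.37 to 8.92. Tekt1, a protein of ciliary microtubules, fell by 5.19 (adjusted p = 0.0219), a call lost without 2 days replicate 2 or any 1 of the 4-day samples (highest adjusted p = 0.0902), or with the mean over its probes (0.057). Foxj1, the master factor of motile cilia, had a change of -4.58 that did not pass (adjusted p = 0.114). The count of 2 ran from 0 without 2 days replicate 2, or without any 1 of the 4-day samples, to 5 without 14 days replicate 2 or 3; it was 4 without 1 day replicate 1, 14 days replicate 1 or 14 days replicate 4. Under median centring it was 1. The slide block gave 7 lower and 1 higher.

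Genes of the p53 response and apoptosis had 3 of 17 called lower, 0 higher, with a median of -1.61. Cdkn1a, a cell cycle inhibitor, had 15.32, 14.30 and 14.52 at 1 day, 14.43 and 13.54 at 2 days and 7.53, 8.99 and 11.86 at 4 days (-4.96, adjusted p = 0.00532). Its 4-day samples were far apart from one another, and all lay below the early ones. Fas, a death receptor, fell by at least 8.18-fold (adjusted p = 0.00751), and the call was lost under median centring (adjusted p = 0.0613). Pmaip1, or Noxa, fell by 4.39 (adjusted p = 0.0314) and was called in 10 of 17 fits without 1 array, being lost without 1 day replicate 1 or 2, either sample of 2 days or any 1 of 4 days (highest adjusted p = 0.14), and with slide as a block (0.0514). It was well above background in 2 of 3 samples at 4 days.

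Genes of cell division did not pass the test. None of the 22 mitosis genes passed, with mean levels of 10.43 to 12.08 in the early samples and 10.70 to 11.38 at 4 days, and none of the 20 DNA replication or 12 transit amplifying progenitor genes. Of the transit amplifying genes 1 was called higher than at 2 days with slide as a block. Of 10 genes of cell cycle exit 1 was called lower, Cdkn1a, described above, and the list's median was -0.24. Mki67, a marker of cycling cells, had 12.05 to 14.01 and then 12.18, 10.33 and 11.81, a change of -1.82 (adjusted p = 0.384). Medians of these lists were -0.30, -0.37 and -0.45 and changed sign in 3, 3 and 2 of the 34 settings. A p that misses the threshold does not show that these levels were alike.

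Genes of the pallium had a negative median, though few of them or of the glutamatergic lineage passed the test. Over all genes tested, 2.68% were called lower. The pallial median was -1.31, and the mean level was 12.11 to 13 in the early samples and 10.53 to 11.78 at 4 days. The glutamatergic median was -0.58, with mean levels of 8.9 to 10.34 and then 8.17 to 10.89, which overlap. Of 12 pallial genes, 2 were called lower: Tfap2c, an AP-2 factor of pallial progenitors, by 3.82 (adjusted p = 0.021), and Emx2, a homeobox factor of the pallium, by 3.72 (adjusted p = 0.0133) with no value for 1 day replicate 2. The call of Tfap2c was lost without either sample of 2 days, 4 days replicate 2 or 4 days replicate 3 (highest adjusted p among these = 0.119), under median centring (0.0597), with the processed signal (0.0651) and with slide as a block (0.119). That of Emx2 was lost without 4 days replicate 1 or 3 (highest adjusted p among these = 0.0683), with the mean over its probes (0.161), in a fit of the 8 arrays only (0.0572), in the pooled fit of 2 groups (0.118) and with slide as a block (0.0997). The count of 2 was 0 without 4 days replicate 3 and 1 without 2 days replicate 1, 2 days replicate 2 or 4 days replicate 2, and 0 with slide as a block. Of 11 genes of the glutamatergic lineage 1 was called lower, Fezf2, a zinc finger factor of deep-layer projection neurons, at -3.49 (adjusted p = 0.0455). It was called in 5 of 17 fits without 1 array, those that left out 1 day replicate 2, 4 days replicate 1 or 14 days replicate 1, 2 or 4 (highest adjusted p otherwise = 0.228), and was not called with slide as a block (0.0974). The list's count was 2 without 4 days replicate 1, 1 in the other 4 of these fits, and 0 in the remaining 12 and with slide as a block. Tbr1, a factor of glutamatergic neurons, was at 8.15 in 1 day replicate 1, 12.21 to 13.46 in the other early samples, 14.92 in 4 days replicate 1 and 10.98 and 11.55 in the other samples of that time. Eomes, a factor of their intermediate progenitors, had 10.98 to 11.63 and then 11.86, 7.98 and 7.16. For both genes 4 days replicate 1 stood above the other 4-day samples, and neither was called. Without that sample Eomes was called lower, with a change of -3.72 (adjusted p = 0.00303). On the pair of slides the median change of the 11 glutamatergic genes was 0.77 and -3.11.

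In metabolism, 3 of 20 glycolysis and hypoxia genes were called lower and 0 higher, with a median of -1.27. Aldoa, an enzyme of glycolysis, had 16.06, 15.95 and 15.81 at 1 day, 16.19 and 16.06 at 2 days and 13.39, 13.35 and 13.76 at 4 days (-2.51, adjusted p = 0.00446), but was not called under median centring (adjusted p = 0.0788) or with the processed signal (0.109). Slc2a1, a glucose transporter, fell by 3.34 (adjusted p = 0.0187), a call lost without either sample of 2 days, 4 days replicate 2 or 4 days replicate 3 (highest adjusted p = 0.0851) and under median centring (0.0538). The count was 1 without 2 days replicate 1, 2 days replicate 2, 4 days replicate 2 or 4 days replicate 3, and 6 without 14 days replicate 1 or 2. Under median centring it was 0. Cytosolic ribosomal protein genes had a median change of 0.51 and respiratory chain genes one of 0.18, with 0 of 20 called in each. Of 18 genes of cholesterol synthesis 3 were called lower, among them Msmo1 by 2.90 (adjusted p = 0.0105), a sterol oxidase whose call was lost without 4 days replicate 2 (adjusted p = 0.0702), with the processed signal (0.116) and with slide as a block (0.164). That count was 1 without 1 day replicate 2, 2 days replicate 1 or 4 days replicate 3, and 0 without 4 days replicate 2. It was 1 under median centring and 0 with slide as a block.

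Erythroid markers moved with these falls, while other markers of blood and vessel cells were mixed. All 6 erythroid genes tested had early values above all 4-day values, against 8.17% of all genes tested, and 3 were called lower. Their mean level was 11.66 to 12.31 in the early samples and 7.81 to 8.15 at 4 days. Hba-a1, an alpha globin, had 17.15, 16.23 and 15.08 at 1 day, 16.52 and 15.53 at 2 days and 7.75, 8.24 and 8.68 at 4 days (-7.88 ± 0.52, adjusted p = 1.88e-05). Hba-a2 fell by 7.02 and Hbb-bt, a beta globin, by 4.89 (adjusted p = 0.00823 and 0.000483), and near-identical globin copies cannot be told apart here. In the lateral samples of the same arrays, Hba-a1 was at 15.59 in 1 day replicate 3 and 15.91 in 4 days replicate 3, and between 7.29 and 10.22 in the other 6. Haemoglobin RNA was thus high in all early dorsal samples and low in all dorsal samples of 4 days, the same split as for the interferon and glial genes, and its part in those falls was not tested. Pdgfrb, a receptor of pericytes, fell by 4.86 (adjusted p = 0.000291), the 1 called gene of 12 endothelial and mural ones. Of 11 neutrophil genes, 3 were called lower, and Stfa1, a cystatin with near-identical copies, had 8.59 to 13.25 and then 6.50, 6.64 and 6.65 (adjusted p = 0.000291), well above background in 1 of 3. The neutrophil list was mixed, with 4 positive and 7 negative changes and a median of -0.552. Its median was 0.15 and 0.312 on the 2 slides that hold both 2 days and 4 days. The neutrophil count was 1 without 2 days replicate 2 or any 1 of the 4-day samples, 1 under median centring and 1 with slide as a block. None of 6 choroid plexus and 7 meningeal fibroblast genes was called, where 1 meningeal gene was with slide as a block.

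**Figure D4:**
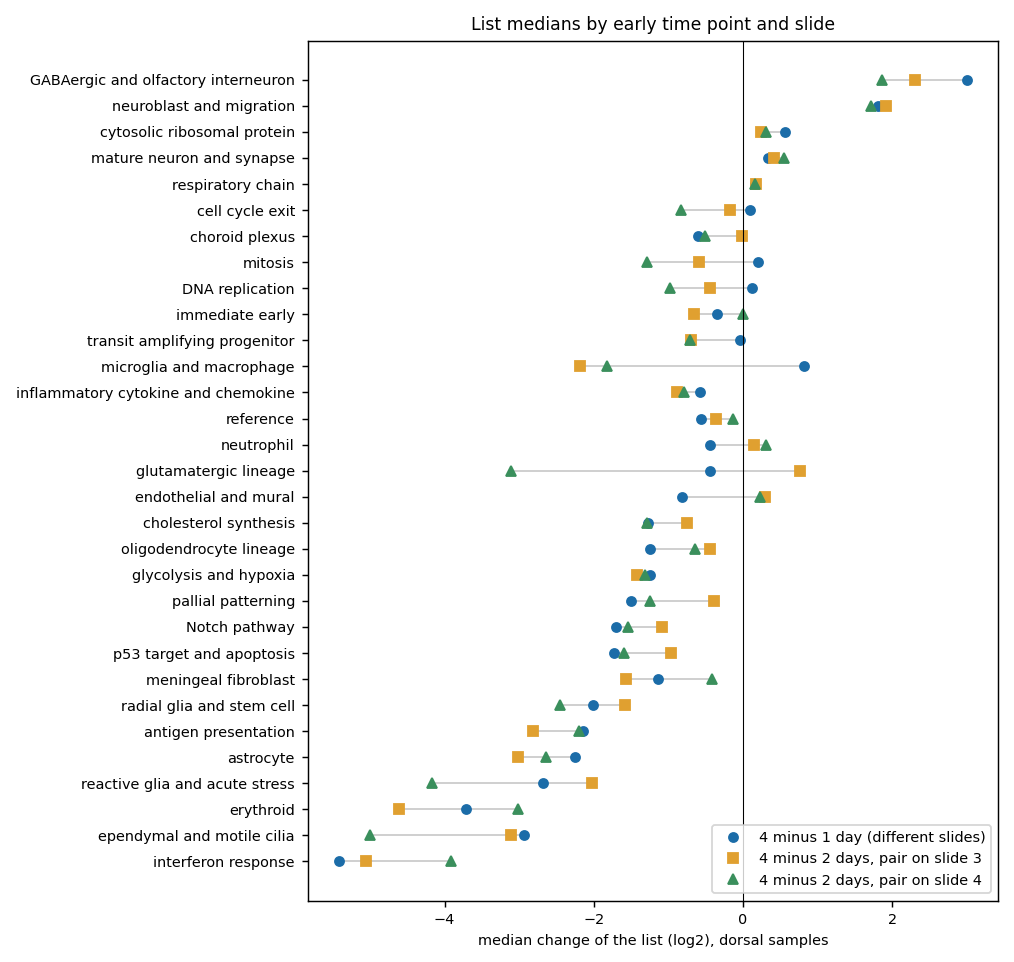
Median change in dorsal log2 intensity of each of the 31 lists, for 4 days against 1 day, which lie on different slides, and for the pair of 4 days and 2 days on each of the slides that hold both. The interferon response median is -5.41 against 1 day and -5.06 and -3.91 on the slides, that of GABAergic genes 3.00, 2.30 and 1.86, and the 3 values of a list share 4-day samples.

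The same comparison in the lateral samples of these arrays called 398 genes, 241 higher (1.15%) and 157 lower (0.749%). Both walls called 142 genes, 18% of the dorsal and 35.7% of the lateral calls, and 751 of the 788 dorsal calls had the same sign in the lateral samples. The share with the same sign over all genes tested was not counted, and both walls were read on the same arrays and normalized together. Of the 788, 315 had an unadjusted p under 0.05 for a difference between the walls (limma, ratio within arrays), where 2143 of all 20956 genes did. The dorsal change by which the 788 were chosen is part of that difference. That choice alone raises their share, so no conclusion is drawn from it. The lateral count was 72 without 4 days replicate 1, 100 without 4 days replicate 3, 165 without 2 days replicate 2, 205 without 2 days replicate 1, 231 without 4 days replicate 2, 611 without 1 day replicate 1 and 653 without 1 day replicate 2. By group, 10 of 24 interferon genes were called lower in the lateral samples with a median of -3.62, 5 of 18 GABAergic genes higher with 2.25 and 10 of 22 neuroblast genes higher with 2.04. Of 14 astrocyte genes 1 was called lower there, with a median of -1.65, and of 6 erythroid genes 0, with a median of -0.10.

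The difference between the walls was tested on the ratio within each array. The labels name the molecule as polyA RNA for the dorsal channel and total RNA for the lateral one, while they describe 1 extraction and amplification for both. The part of this labelled difference in levels of the walls set side by side was not tested, and wall and dye cannot be told apart, since all dorsal samples were Cy3. The test called 7 of 20956 genes (0.0334%), and 2143 had an unadjusted p under 0.05. Of the 7, the dorsal minus lateral difference was positive for 1 and negative for 6. A negative difference can be a larger fall in the dorsal wall, as for Pacsin3 below. None of the interferon, astrocyte or erythroid genes was among the 7. The median differences of these lists were -1.545, -1.052 and -3.706, so the lack of a call does not show that the walls changed alike. Dlx2, a homeobox factor of interneuron precursors, had dorsal levels of 9.10, 10.87 and 10.61 at 1 day, 11.66 and 11.06 at 2 days and 13.44, 13.78 and 14.90 at 4 days. In the lateral samples it was already high, at 13.08 to 14.76 before 4 days and 13.80, 14.05 and 14.58 at 4 days. The dorsal change was 3.38, the lateral 0.04, and the difference of 3.35 was called (adjusted p = 0.0126). It was not called without 4 days replicate 2 (adjusted p = 0.0837), where the count of such genes was 0.

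Prrx2, a homeobox factor of mesenchyme, had dorsal levels of 14.31, 13.57 and 12.59 at 1 day, 12.19 and 12.01 at 2 days and 7.54, 9.01 and 8.14 at 4 days, and lateral levels of 7.44 to 9.88 throughout. The difference of the changes was -4.59 (adjusted p = 0.0249), called in 11 of 17 fits without 1 array and lost without either sample of 8 hours, 1 day replicate 2, 2 days replicate 1 or 4 days replicate 1 or 2 (highest adjusted p = 0.141). Pcp4, a regulator of calmodulin, had dorsal levels of 13.03 to 14.71 and then 13.57, 9.36 and 11.58, whereas the lateral ones went from 7.93 to 10.52 up to 12.57, 11.59 and 12.26. Its difference was -5.32 (adjusted p = 0.0376), called in 7 of 17 such fits, those that left out 1 day replicate 3, 4 days replicate 1, 7 days replicate 2 or 3, or 14 days replicate 1, 2 or 4 (highest adjusted p otherwise = 0.15). Pacsin3, which bends membranes in endocytosis, fell by 4.50 in the dorsal samples, and its lateral change of -1.32 gave a difference of -3.18 (adjusted p = 0.0229), lost without 1 day replicate 2, 2 days replicate 1 or 4 days replicate 2 or 3 (highest adjusted p = 0.12). Pter fell by at least 136-fold in the dorsal samples, with a difference of -4.03 (adjusted p = 0.0406) called in 3 of 17, those without 1 day replicate 2 or 7 days replicate 2 or 3 (highest adjusted p otherwise = 0.179). The replicate block left none of the 7 called. The remaining genes called were the unnamed probes A_52_P827836 and A_52_P876207, with differences of -3.09 and -3.46. The count of 7 was 2 without either sample of 8 hours or 1 day replicate 2, 1 without 2 days replicate 1, 19 without 1 day replicate 3, and 4 without 4 days replicate 1, 4 days replicate 3, 7 days replicate 1, 14 days replicate 1 or 14 days replicate 4.

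**Figure D5:**
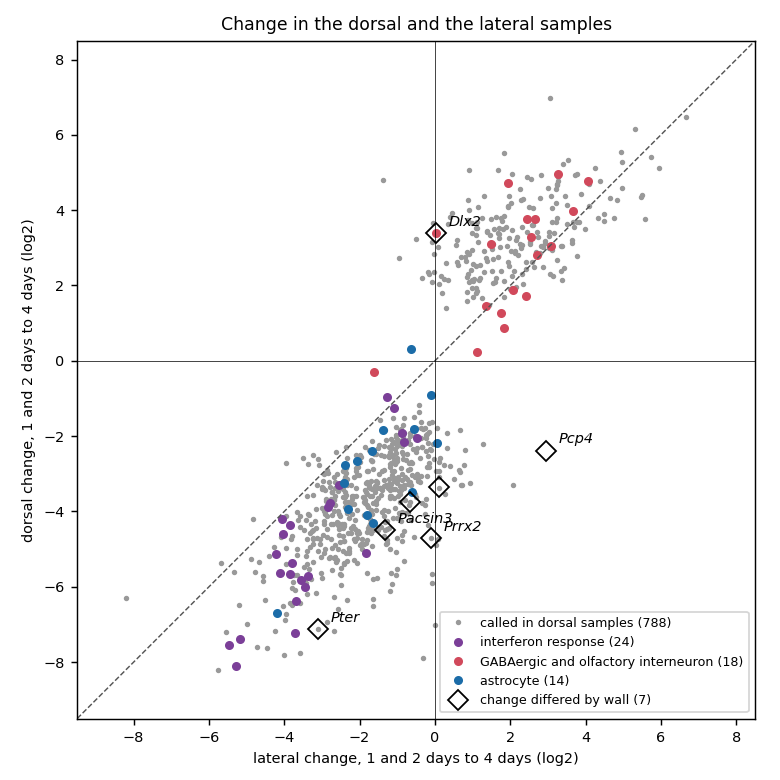
Dorsal against lateral change in log2 intensity from the early samples to 4 days, for the 788 genes called in the dorsal comparison (grey), the interferon, GABAergic and astrocyte lists (coloured) and the 7 genes whose changes differed between the walls (diamonds). The dashed line marks equal change. Dlx2 lies at 3.38 on the dorsal and 0.04 on the lateral axis.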

How the data were processed

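Amplified cDNA from GFP-sorted cells, 200 ng for each sample, was hybridised to 17 Agilent 2-colour arrays, with the dorsal sample in Cy3 and the lateral one in Cy5. Amplification followed a global PCR protocol that the labels call undisclosed, so the fold changes are those of amplified material. The deposited scanner files hold spot intensity, which per the file headers came from Agilent Feature Extraction in version 10.5.1.1 or in version 10.7.3.1. The authors' deposited value table holds log2 ratios, taken as dorsal over lateral because each column correlated with the array's own ratio at 0.861 to 0.966. Its column medians are -0.164 to 0.0449, and its normalization is not stated in the sources used here.

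Mean intensities were corrected with normexp (offset 50), normalized by loess within arrays and Aquantile between all 17 arrays, and averaged over the spots of a probe, leaving out 1639 control spots and outlier flags, with limma 3.58.1 in R 4.3.3. No spot was saturated. Of 41174 probes, 27048 were named by accession and 6723 by symbol through RefSeq tables of GRCm38.p6, and 7403 kept the name in the file. Probes well above background on at least 3 of the 8 dorsal samples were kept (30961), with 1 probe for each gene, giving 20956 genes. The 17 dorsal samples were fitted with a mean for each time point (11 residual degrees of freedom), and the 4-day mean was set against the mean of the 5 early samples, so that 1 day has a weight of 0.6 and 2 days one of 0.4. Lateral samples and the ratio within arrays were fitted in the same way. Tests were two-sided, adjusted by Benjamini-Hochberg over all genes with a threshold of 0.05 for a call, and the script was tested on simulated data.

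The genes named are the 12 largest rises and 12 largest falls among called genes whose groups do not overlap and that are well above background in every sample of the brighter group, leaving out clone, locus and probe names. Up to 4 called members of each of 31 lists (476 genes), or the member with the smallest p, and the 5 largest differences between the walls in each direction were added. Other list members were chosen for their roles, after their values were seen. The members and lists were chosen with earlier results of these data known. A replicate number was not used as a pairing, and the deviations of same-numbered samples correlated at -0.0404 to 0.157. These values cannot settle whether the numbers pair samples, since the 2 deviations of a group of 2 mirror one another. The first replicates of 2 days and 4 days shared a slide, as did the second. Alternatives were other normalizations, filters, samples, weights and blocks. Those of 4 days against 1 or 2 days alone, and of 4 days against 2 days with slide as a fixed block, were chosen after seeing the data.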

Additional observations from a re-analysis of the deposited data

Results flagged for a closer look

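Among 117 sets of 5 early dorsal values (list means and named genes) 11 had a sample far from the others, and chance sets apart about 1 in 20. Of these, 6 were 1 day replicate 1, which also had the lowest correlations with the other samples. In that sample the mean level was 9.788 for GABAergic genes (10.407 to 10.554 in the others), 8.896 for glutamatergic genes (10.138 to 10.34) and 12.09 for astrocyte genes (12.813 to 13.01). The level there was 15.379 for Gli3 (12.937 to 13.585), 12.112 for Aurka (11.393 to 11.533) and 14.797 for H2-K1 (16.021 to 16.161). In 1 day replicate 2 the mean was 10.331 for endothelial and mural genes (8.171 to 8.715), 14.862 for cytosolic ribosomal protein genes (15.312 to 15.482) and 13.016 for reference genes (13.464 to 13.642). In 2 days replicate 1 the level was 14.154 for Fam183b (15.414 to 15.833) and 7.584 for Prokr2 (6.097 to 6.247).

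The change to 4 days differed between the walls, by the test on the ratio within arrays, for 7 genes. The differences were 3.347 for Dlx2, -5.324 for Pcp4, -4.593 for Prrx2, -4.027 for Pter, -3.178 for Pacsin3, -3.087 for A_52_P827836 and -3.46 for A_52_P876207.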

How the results depend on the processing

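The dorsal comparison of 4 days with the early samples gave 788 genes. With array weights the count was 2338, without both arrays that stand apart 1196, and for 4 days against 2 days alone 126. With slide as a random block it was 1039, at an estimated correlation within slides of -0.232. Leaving out 1 array gave 368 to 1076. The replicate block gave 775, and the replicate number was not used as a pairing in the main fit. For 2 days against 1 day, with 0 genes by limma, the count was 7 with no filter on dim probes, 1581 with array weights, 6 without both arrays that stand apart, 12 with slide as a random block, 0 with the replicate block and 0 to 235 without 1 array. For the difference between the walls, with 7 genes, it was 3 after quantile normalization of each channel alone, 4 with the stricter filter, 4 with equal weights for 1 and 2 days, and 1 with the scanner's processed signal. It was 0 with median centring, the 8 arrays only, the replicate block, the pooled fit of 2 groups or the value table, and 0 to 19 without 1 array. For the lateral comparison, with 398 genes, it was 221 with the processed signal, 245 with the 8 arrays only, 1645 with array weights, 1043 without both arrays that stand apart, 243 with the replicate block, 155 with the pooled fit and 72 to 653 without 1 array. Median centring gave 41.8% of lateral calls higher, in place of 60.6%. The cause of these shifts was not tested.

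Of the values for named genes under an alternative, 3302 kept their side of the threshold, 493 lost the call, 29 gained one and 14 changed sign, none of these called in either setting. For 4 days against 2 days alone they were Sox2 (-0.412), Dll1 (-0.308) and Tbr1 (-0.525). With slide as a fixed block they were Rfc3 (-0.418), Sox2 (-0.344), Dll1 (-0.482) and Tbr1 (-0.658). Without both arrays that stand apart, and without 1 day replicate 1 alone, Sox2 was at -0.034 and Tbr1 at -0.42. Over the fits without 1 array Sox2 ranged from -0.034 to 0.803 and Tbr1 from -0.703 to 1.266. Tbr1 was also at -0.304 with array weights, and Cyc1 at 0.039 under median centring. List medians kept their sign in all 34 settings except those of transit amplifying progenitor, mitosis, DNA replication, cell cycle exit, microglia, neutrophil, endothelial, choroid plexus, immediate early, cytokine and reference genes. Counts of called list members moved by over 1.5 times in 199 of their values and stayed within it in 824. Dim signal limits the falls, since 78 of the 561 genes called lower were not well above background in any 4-day sample.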

Other observations

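Some lists have not been described. Of 14 oligodendrocyte lineage genes 1 was called, Gpr17, a receptor of committed oligodendrocyte precursors, which fell by 4.85 (adjusted p = 0.0412, limma) and was called in 7 of 17 fits without 1 array, those that left out 1 day replicate 3, 7 days replicate 1 or 2 or a sample of 14 days (highest adjusted p otherwise = 0.133). With slide as a block Gpr17 was not called (0.0709), nor under median centring (0.141), and it was well above background in 1 of 3 samples at 4 days. None of 16 immediate early genes was called, and the mean level of that list was 12.01 to 13.21 in the early samples and 11.99 to 12.33 at 4 days. Of 14 inflammatory cytokine and chemokine genes 2 were called lower, Cxcl10 and Ccl5, and the early and 4-day values of Ccl5 overlapped. Ccl5 was not called for 4 days against 1 day alone (adjusted p = 0.113). That count was 1 without either sample of 2 days, 4 days replicate 1 or 4 days replicate 3.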
